A study of Homo sapiens with 5 samples.

Results

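The immediate early genes CYR61, MYC, KLF2, DUSP5, FOS and EGR1 were followed through 3 RNA polymerase II (RNAPII) profiles around transcription start sites (TSSs). They are 6 of 9787 TSSs with values in all 3 libraries. They were selected by name, after an earlier reading of the same profiles in which this gene class had lower RNAPII density in the gene body of CFAP20/CCNC-dKO cells than of WT cells. Values of that contrast are therefore given as a description and support nothing on their own. All 6 had a promoter density above the median TSS in each of the 3 libraries.

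Immediate early genes are transcribed within minutes of a growth factor, serum, stress or mechanical stimulus, without prior protein synthesis. Signalling through MAP kinases and actin reaches transcription factors already bound at their promoters, such as serum response factor (SRF) with its ternary complex partners at the CArG box, CREB family factors at cyclic AMP response elements, and MEF2 factors at the KLF2 promoter. RNAPII is often paused shortly downstream of their TSS before release into the gene, and Mediator links the bound factors to the polymerase. The kinase module of Mediator, which holds cyclin C (the CCNC product), CDK8 or CDK19, MED12 and MED13, has been linked to elongation at serum-responsive genes.

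RNAPII was mapped by chromatin immunoprecipitation and sequencing (ChIP-seq) with antibodies to RPB1, its largest subunit, in untreated RPE1 cells, an hTERT-immortalised line from human retinal pigment epithelium. All lines carried an inducible Cas9 and were p53/puro-dKO, so the WT cells also lack p53. The groups were WT, CFAP20-KO (no CFAP20, a cilium-associated protein also found in the nucleus) and CFAP20/CCNC-dKO (no CFAP20 and no cyclin C). TSS profiles came from replicate 1 of each genotype, 1 library per genotype, and 3 WT libraries were profiled around replication origins. In these bulk libraries, less RNAPII in every cell and RNAPII in fewer cells cannot be told apart. The cells grew in serum to near confluence and no stimulus was given, so the levels are those of growing cells. The labels do not say whether a knockout line is 1 clone, and no group without CCNC alone was given.

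A test between genotypes was not possible at TSSs, where each has 1 library, so no p-values are given. The deposited coverage moved in steps, each taken as 1 fragment, and density divided by this step and by the fragment length gave equivalent fragments: 7006814 in WT, 840840 in CFAP20-KO (12% of WT) and 1180464 in CFAP20/CCNC-dKO (16.85%), over all TSS windows. Intervals in the text are 95% Clopper-Pearson intervals (for ratios) of these fragments and cover counting error only. Isolated fragments covered a median of 140 bp in WT (206 fragments) and 300 and 320 bp in the knockouts (2805 and 1283 fragments). Equivalent fragments and intervals depend on these lengths, and the WT length rests on the fewest fragments. The labels name 1 supplier's RPB1 antibody for WT and another's for both knockouts. For WT, however, 1 product number is listed against both the RPB1 and the spike-in reagent, and the entry could be a mistake. Wherever a knockout is set against WT, its genotype cannot be told apart from fragment length or, if the label holds, from antibody. Of the retinal pigment epithelium markers listed, 5 of 8 were measured: promoter density at OTX2 was 1.68, 1.81 and 1.01 in WT, CFAP20-KO and CFAP20/CCNC-dKO, while RPE65, RLBP1 and TTR lay below the filter described next. The summed promoter density of these 5 markers was 3.49, 3.33 and 2.79. No marker of the cultured epithelial or mesenchymal cell list was measured, and of 5 measured blood and neuron markers 4 were below the filter, SNAP25 with 1.05, 0.150 and 0.121 being above it. Their sums were 0.904, 0.402 and 0.877 for 3 blood markers and 1.37, 0.413 and 0.538 for 2 neuron markers, and the part of these differences in the members' values was not tested.

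Promoter density was the mean coverage from -200 to 500 bp of the TSS, and gene body density the mean from 1000 bp to the listed gene end or 5000 bp, whichever came first. The end matters here, since 4 members are listed as shorter than 5000 bp: KLF2 (3058 bp), CYR61 (3202 bp), FOS (3457 bp) and EGR1 (3826 bp). Log2 ratios were taken relative to the median ratio of the 4893 TSSs whose mean promoter density exceeded the median of 0.411, after adding a pseudocount of 0.0411, so the median of all these TSSs is 0 by construction and ratios of low genes are understated. A member is called lower or higher when it was at least 1.5-fold away from that median. The medians themselves were -0.24 (log2) for promoter density of CFAP20/CCNC-dKO against WT, 0.13 for CFAP20-KO against WT and -0.40 between the knockouts; for gene body density they were 0.02, 0.10 and -0.09.

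The promoters of 3 members were matched in RefSeq (GRCh38.p14) and are shown because promoters of this class hold the short elements at which signal-dependent factors bind. Each runs 5′ to 3′ on the plus strand from 250 bases before to 50 bases after the RefSeq start: KLF2 at chr19:16324576-16324875, FOS at chr14:75278578-75278877 and EGR1 at chr5:138465229-138465528. Capitals mark matches on either strand to the CArG box, the MEF2 site, TGACGT (the core of the cyclic AMP response element) and TATAA. CYR61, MYC and DUSP5 are named only.
KLF2: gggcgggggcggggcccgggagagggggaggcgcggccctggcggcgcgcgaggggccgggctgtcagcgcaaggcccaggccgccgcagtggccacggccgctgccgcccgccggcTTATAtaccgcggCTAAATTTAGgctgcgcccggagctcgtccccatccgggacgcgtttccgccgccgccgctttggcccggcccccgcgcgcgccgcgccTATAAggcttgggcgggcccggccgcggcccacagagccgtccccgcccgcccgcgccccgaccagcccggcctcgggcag
FOS: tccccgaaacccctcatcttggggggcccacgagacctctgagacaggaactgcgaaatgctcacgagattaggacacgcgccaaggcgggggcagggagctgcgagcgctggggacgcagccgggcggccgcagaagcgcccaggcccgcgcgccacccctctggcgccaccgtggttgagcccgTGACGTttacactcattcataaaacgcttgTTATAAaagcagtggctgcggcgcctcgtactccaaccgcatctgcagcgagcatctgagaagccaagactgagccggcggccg
EGR1: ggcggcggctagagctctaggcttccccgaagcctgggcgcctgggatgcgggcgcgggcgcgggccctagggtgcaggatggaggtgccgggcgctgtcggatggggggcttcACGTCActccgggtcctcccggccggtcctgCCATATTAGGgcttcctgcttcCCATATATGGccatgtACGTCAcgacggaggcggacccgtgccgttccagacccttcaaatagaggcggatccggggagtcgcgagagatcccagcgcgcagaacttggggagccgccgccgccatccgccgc
EGR1 carried 2 CArG boxes, CCATATTAGG from -105 to -96 and CCATATATGG from -83 to -74, and TGACGT on the minus strand from -136 to -131 and from -67 to -62. FOS had TGACGT from -64 to -59 and TATAA from -33 to -29, which overlaps a match on the other strand from -34 to -30. KLF2 had a MEF2 site, CTAAATTTAG, from -120 to -111, TATAA from -31 to -27 and a minus-strand match from -133 to -129. Among 35116 promoter windows of the same length, 1.29% held a CArG box, 2.99% a MEF2 site, 7.98% TGACGT and 20.4% TATAA, all on both strands. A match is a description of the letters and not evidence of a bound factor. Bases outside these windows were not searched, so a motif missing here may lie further away. The listed TSS lay at -9 bp from the RefSeq start at KLF2, at -54 bp at FOS and at 11 bp at EGR1.

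**Figure D1:**
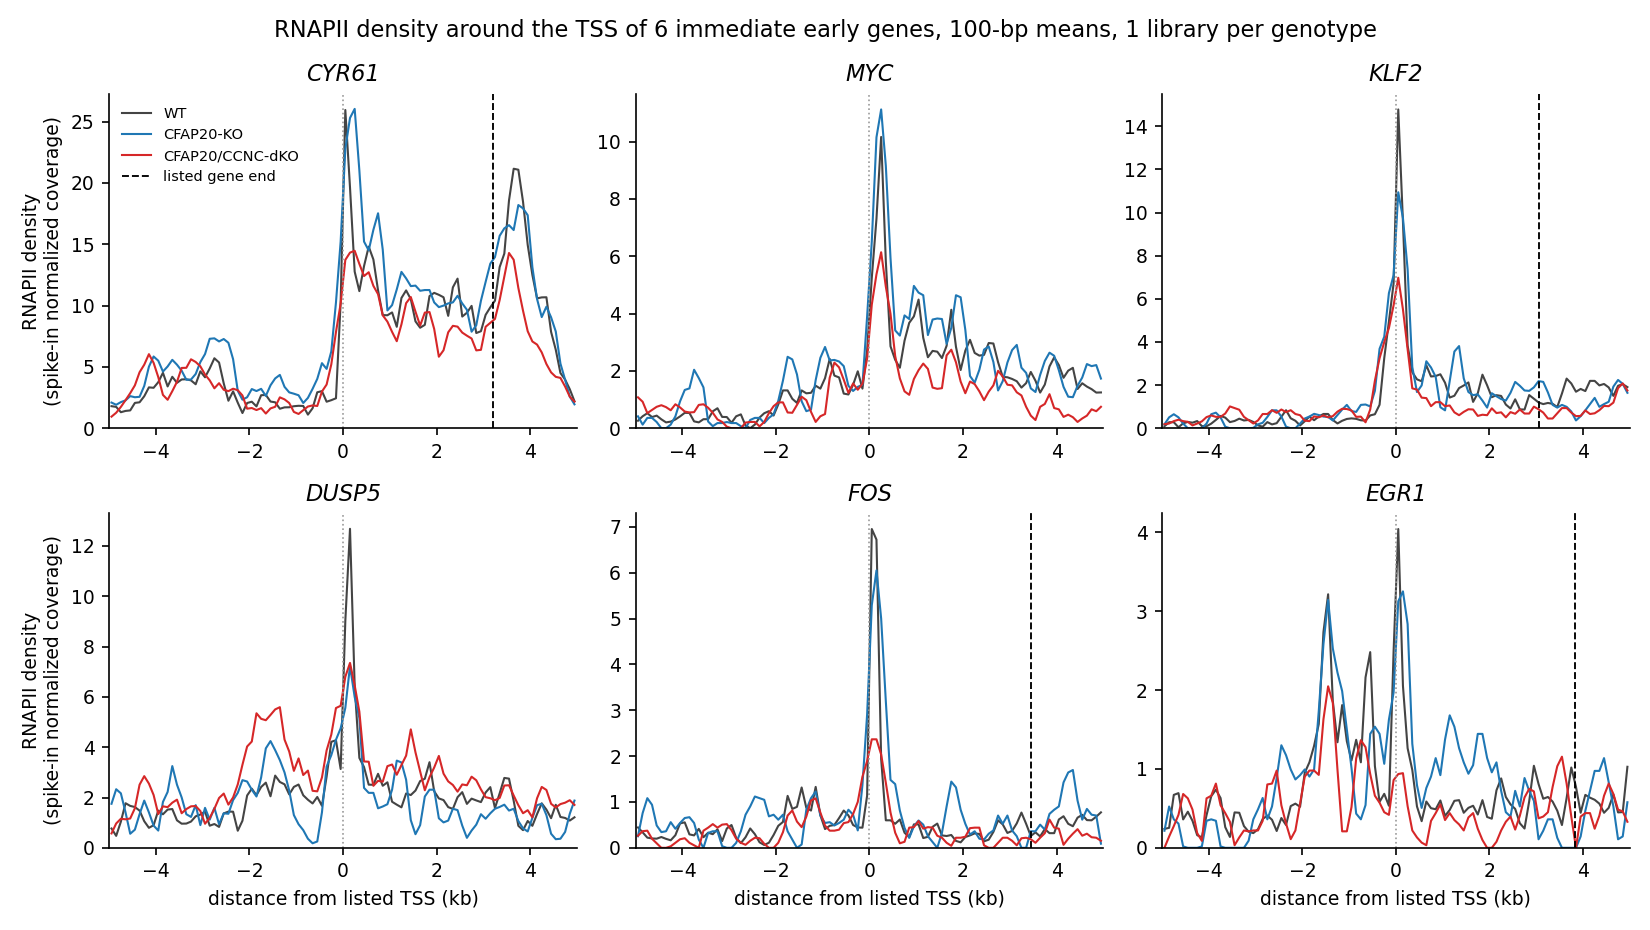
RNAPII density (spike-in normalized coverage, 100-bp means, own scale per panel) by distance from the listed TSS in kb, for 6 genes and 1 library each of WT, CFAP20-KO and CFAP20/CCNC-dKO; dashed lines mark listed gene ends. CYR61 shows a second maximum past its listed end, KLF2 and FOS one narrow promoter peak, and EGR1 a peak near -1450 bp beside the one at the TSS.

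CYR61 encodes a secreted matrix protein (now CCN1) that binds integrins and is a target of the YAP and SRF pathways. Its listed TSS is on chromosome 1 at 85580761 (hg38, plus strand). It had the highest promoter and the highest gene body density of all 9787 TSSs in each of the 3 libraries, and it also ranked first of 6325 genes by the authors' BrU-seq value for WT gene bodies, which reports nascent RNA. Its promoter held a density of 13.6 in WT, 19.4 in the CFAP20-KO library and 12.3 in the CFAP20/CCNC-dKO library. CFAP20-KO was thus 1.42-fold above WT (interval 1.24 to 1.63), beyond counting error, and CFAP20/CCNC-dKO was 0.904 of WT (0.787 to 1.03). The highest 100-bp promoter means were nearly equal in WT (25.95) and CFAP20-KO (26.04), and lower in CFAP20/CCNC-dKO (14.47). From -5000 to -2000 bp CFAP20-KO was also 1.41-fold above WT (1.229 to 1.615), so the difference was not particular to the promoter. The part of the longer knockout fragments in it was not tested. Gene body density was 9.77, 10.8 and 8.10 in the same order, 0.829 of WT in CFAP20/CCNC-dKO (0.754 to 0.910). Relative to the median these gene body ratios were 0.04 (CFAP20-KO) and -0.29 (CFAP20/CCNC-dKO), both short of 1.5-fold.

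Density over CYR61 stayed high to its end and beyond. From the listed end, at 3202 bp, to 5000 bp it was 11.4 (WT), 11.4 (CFAP20-KO) and 7.49 (CFAP20/CCNC-dKO), a ratio to WT of 1.00 (0.899 to 1.12) and 0.659 (0.591 to 0.733). In CFAP20/CCNC-dKO the ratio to WT was thus lower past the listed end than in the gene body (0.829), and the counting intervals of both do not overlap. GENCODE 44 places the gene end later, at 3828 bp, so part of that window is annotated gene. With the promoter only 1.40, 1.80 and 1.52 times as dense as the gene body, CYR61 had the flattest profile of the members in WT and CFAP20-KO. Upstream of it, from -5000 to -2000 bp, density was 3.17, 4.48 and 3.59, a stretch that holds the start of the oppositely transcribed DDAH1 at -2398 bp.

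MYC encodes a transcription factor that drives growth and the cell cycle, and its listed TSS is on chromosome 8 at 127736069 (plus strand). Its promoter held a density of 5.07 in WT, 6.90 in the CFAP20-KO library and 4.11 in the CFAP20/CCNC-dKO library. Gene body density was 2.22, 2.52 and 1.21. The CFAP20/CCNC-dKO gene body thus held 0.544 of the WT density (0.453 to 0.648), or -0.88 relative to the median, while the promoter held 0.810 (0.634 to 1.02), or -0.06. The lower density in that library lay within the gene more than at its start, and the stretch from 500 to 1000 bp was already at 0.557 of WT (0.350 to 0.849). In CFAP20-KO the gene body was at 1.13 of WT (0.968 to 1.32). The promoter to gene body ratio was 2.28 (WT), 2.74 (CFAP20-KO) and 3.40 (CFAP20/CCNC-dKO), whereas the median of all TSSs above the filter was 2.32, 2.36 and 1.90. At MYC the ratio was thus highest in CFAP20/CCNC-dKO, the library in which the median TSS was lowest. In the 3 WT libraries with origin windows it spread from 1.65 to 2.68, and WT replicate 2 had a MYC gene body density of -0.74 (log2, relative to the median) against WT replicate 1, so the distance of CFAP20/CCNC-dKO from WT is little larger than that between WT libraries. By gene body density it ranked 27th and 25th of all TSSs in WT and CFAP20-KO and 97th in CFAP20/CCNC-dKO. The antisense RNA CASC11 overlaps MYC as far as 2918 bp, and ChIP-seq cannot assign RNAPII to a strand.

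KLF2 encodes a zinc finger factor induced in vessels by blood flow, and its listed TSS is on chromosome 19 at 16324817 (plus strand). Its promoter held a density of 6.39 in WT, 6.56 in the CFAP20-KO library and 4.31 in the CFAP20/CCNC-dKO library, and gene body density was 1.53, 1.83 and 0.767. CFAP20/CCNC-dKO had 0.501 of the WT gene body density (0.361 to 0.681) and 0.674 of the WT promoter density (0.532 to 0.844). Relative to the median these were -0.98 and -0.32. In CFAP20-KO the ratios to WT were 1.20 (0.919 to 1.54) and 1.03 (0.810 to 1.29), with counting intervals that include equality. The profile was a narrow peak at 50 bp, with 100-bp maxima of 14.8 (WT), 10.9 (CFAP20-KO) and 6.98 (CFAP20/CCNC-dKO). Longer fragments spread a narrow peak over more bases, and their part in these heights was not tested. The divergent KLF2-DT starts at -303 bp.

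DUSP5, a nuclear phosphatase that inactivates ERK and so feeds back on the pathway that induces it, went the other way. Its listed TSS is on chromosome 10 at 110497838 (plus strand), and with 13707 bp it is the longest member. Its promoter held a density of 6.05 in WT, 5.05 in the CFAP20-KO library and 5.81 in the CFAP20/CCNC-dKO library. Gene body density was 1.82, 1.39 and 2.44, lowest in CFAP20-KO and highest in CFAP20/CCNC-dKO. The ratio to WT was 0.763 (0.618 to 0.934) for CFAP20-KO and 1.34 (1.17 to 1.53) for CFAP20/CCNC-dKO. Both intervals leave out 1, and both ratios lie within 1.5-fold of the median (-0.48 and 0.39). Relative to the median, the intervals (-0.797 to -0.199 and 0.207 to 0.591) reach past 1.5-fold. Density was also higher before the gene: from -2000 to -500 bp it was 2.29, 2.12 and 4.09, 1.79-fold above WT in CFAP20/CCNC-dKO (1.498 to 2.12), and the divergent DUSP5-DT starts within this stretch, at -1248 bp. Among TSSs within 5 Mb, the 19 near DUSP5 had an upstream density 1.594, 1.502 and 1.495 times the library median, against 0.937 to 1.24 around the other members, so this region had more signal in all 3 libraries alike.

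FOS encodes the partner of JUN in the AP-1 factor. Its listed TSS is on chromosome 14 at 75278774 (plus strand). Promoter density was 2.63 (WT), 3.61 (CFAP20-KO) and 1.77 (CFAP20/CCNC-dKO), and gene body density was 0.350, 0.460 and 0.240. RNAPII at FOS was concentrated at the promoter, with promoter to gene body ratios of 7.51, 7.85 and 7.39, the highest of the members in each library. CFAP20/CCNC-dKO had 0.674 of the WT promoter density (0.461 to 0.959) and 0.685 of the WT gene body density (0.386 to 1.14). Set against the median, these were -0.31 (-0.87 to 0.18) and -0.50 (-1.39 to 0.17), and both intervals include the median. The gene body value rests on few fragments in the knockouts. FOS ranked 184th of 6325 genes by the authors' BrU-seq value, but 5415th of 9787 TSSs by WT gene body density. Its gene body density of 0.350 in WT was close to the median TSS (0.362). From -5000 to -2000 bp FOS had 0.284, 0.521 and 0.208, so its gene body density was close to that of its upstream flank in each library.

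EGR1 encodes a zinc finger factor of the early growth response family, and its listed TSS is on chromosome 5 at 138465490 (plus strand). Its promoter held a density of 1.70 in WT, 2.13 in the CFAP20-KO library and 0.577 in the CFAP20/CCNC-dKO library, from 191.1, 27.5 and 11.5 equivalent fragments. The CFAP20/CCNC-dKO promoter held 0.340 of the WT density (0.170 to 0.615) and was -1.25 relative to the median, the lowest promoter value of the 6. Gene body density was 0.572, 0.748 and 0.423, a ratio to WT of 1.31 (0.910 to 1.84) for CFAP20-KO and 0.741 (0.502 to 1.06) for CFAP20/CCNC-dKO, and both intervals include 1. The promoter to gene body ratio of EGR1 was 2.97 (WT), 2.85 (CFAP20-KO) and 1.36 (CFAP20/CCNC-dKO). A second peak stood at -1450 bp, within the span of an annotated long noncoding RNA, with 100-bp means of 3.21 (WT), 3.14 (CFAP20-KO) and 2.05 (CFAP20/CCNC-dKO). In CFAP20/CCNC-dKO this upstream peak was higher than the maximum near the TSS, 0.946, the reverse of the order in WT (4.04) and CFAP20-KO (3.25). Density from -2000 to -500 bp was 0.627 of WT in CFAP20/CCNC-dKO (0.451 to 0.854).

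**Figure D2:**
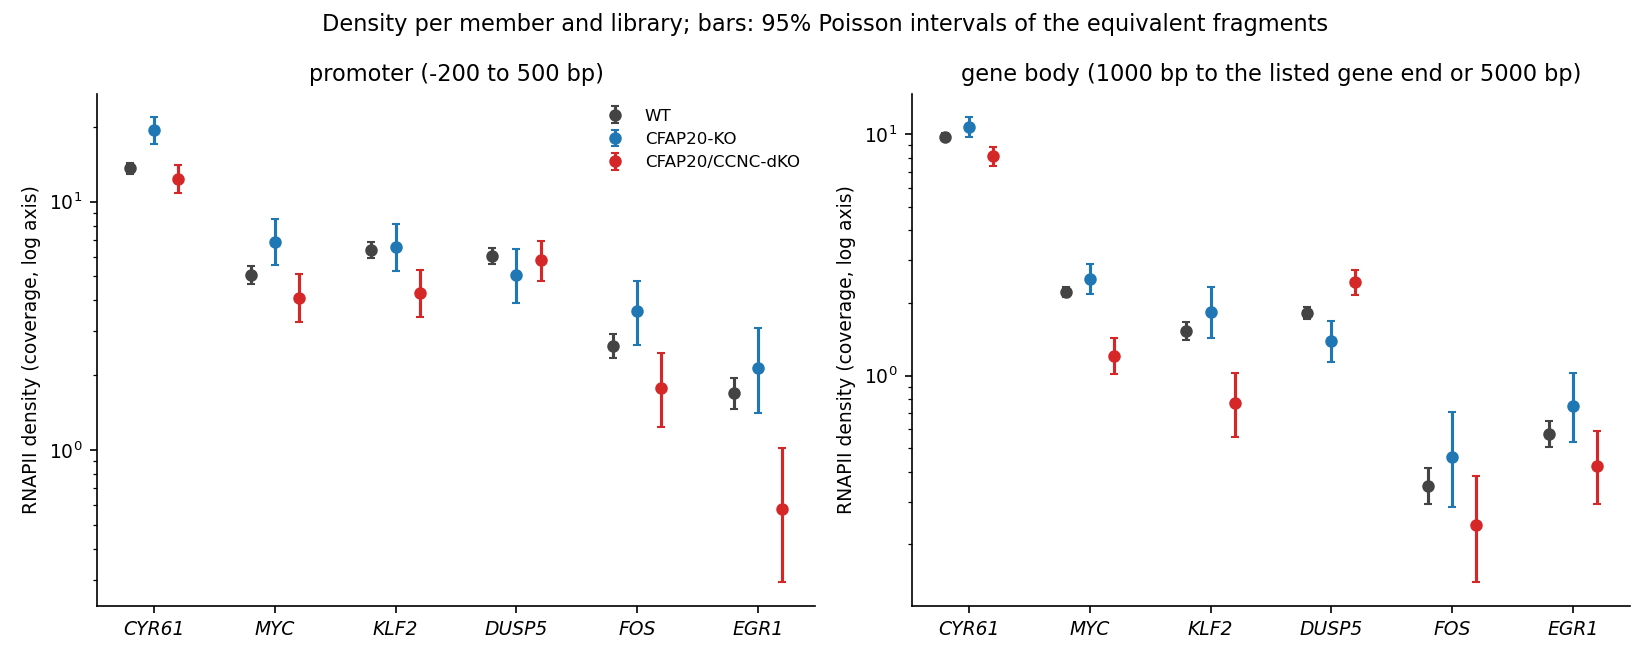
Promoter (left) and gene body (right) RNAPII density on a log axis for each member in 1 library each of WT, CFAP20-KO and CFAP20/CCNC-dKO, with 95% Poisson intervals of the equivalent fragments as bars. In CFAP20/CCNC-dKO, 5 members lie below the other libraries in the gene body and DUSP5 lies above them.

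Counted over the members, gene body density in CFAP20/CCNC-dKO against WT was at least 1.5-fold lower at 2 of 6 (MYC and KLF2) and higher at 0, with a median of -0.46. The background was 8.52% of TSSs lower and 4.09% higher. This is the contrast on which the genes were selected, and nothing is read from these counts. With the gene body from 2000 bp, or to 5000 bp for every gene, 3 members were lower, FOS being the third (-0.84 and -0.65). In CFAP20-KO against WT, 0 of 6 were lower and 0 higher (median 0.12), with a background of 10.6% lower and 5.97% higher. Between the knockouts, which share an antibody supplier per the labels, CFAP20/CCNC-dKO was lower at 4 of 6 and higher at 1 (DUSP5, 1.76-fold). The median was -0.71, against 8.58% lower and 9.75% higher among all TSSs. Lower were MYC (0.480 of CFAP20-KO), KLF2 (0.418), FOS (0.521) and EGR1 (0.566). CFAP20-KO and CFAP20/CCNC-dKO also differed in chromatin (28 and 22 µg), spike-in (40 and 32.6 ng) and equivalent fragments (840840 and 1180464). Genotype cannot be told apart from these in this comparison. This comparison shares the CFAP20/CCNC-dKO library with the contrast used for selection. The interval for FOS, 0.257 to 1.04, includes equality. Upstream of FOS, from -5000 to -2000 bp, CFAP20/CCNC-dKO was also at 0.399 of CFAP20-KO (0.208 to 0.746), so the difference was not particular to its gene body. With a larger pseudocount (50% of the density filter) 2 members were lower, and with the gene body from 2000 bp EGR1 was at 0.19 in place of -0.67. EGR1 fell short of the 1.5-fold difference under 3 of 9 alternatives.

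In promoter density, CFAP20/CCNC-dKO against WT had 1 of 6 members lower (EGR1) and 0 higher, with a median of -0.19 and a background of 16.8% lower and 18.9% higher. CFAP20-KO against WT had 0 lower and 0 higher, with a median of 0.25 and a background of 16.7% and 15.8%. CFAP20/CCNC-dKO against CFAP20-KO had 2 lower (FOS, -0.61, and EGR1, -1.41) and 1 higher (DUSP5, 0.60), with a median of -0.30 and a background of 17.7% and 20.9%. Relative to the median, the FOS interval (-1.30 to 0.035) included the median, and its call was lost under 1 of 7 alternatives. The DUSP5 call was lost under 5 of 7 alternatives, and without centring 5 members were lower and 0 higher.

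**Figure D3:**
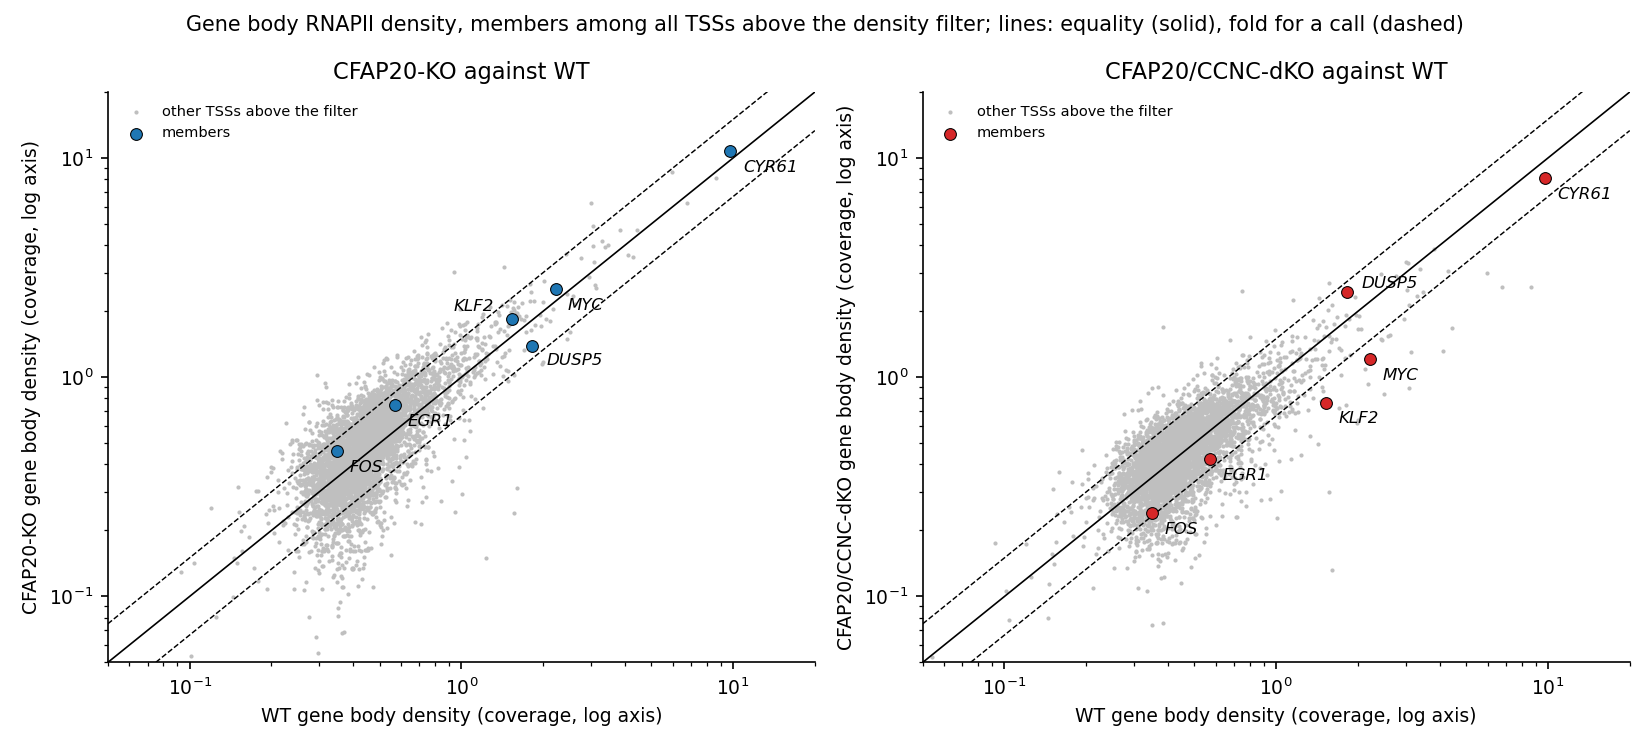
Gene body density in WT (x axis) against CFAP20-KO (left) and CFAP20/CCNC-dKO (right) on log axes, for 4885 (left) and 4887 (right) of the 4893 TSSs above the density filter, the others lying outside the axes, with the 6 members marked; solid lines show equality and dashed lines 1.5-fold. Members lie on both sides of equality in CFAP20-KO, while in CFAP20/CCNC-dKO MYC and KLF2 lie below the lower dashed line and DUSP5 above equality.

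How far such values move without any change of genotype could be read for MYC, DUSP5 and FOS, which lie 34433, 54664 and 20228 bp from a mapped origin and so fall inside the origin windows of 3 WT libraries. Each density was divided by the median of the same 1206 TSSs in its library. The knockouts were read from their TSS profiles; WT replicate 1, read both ways, gave 4.91 from the origin window and 4.82 from the TSS profile for the MYC gene body, and 3.30 and 3.67 for its promoter. The labels do not say whether the 3 WT libraries came from separate cultures. MYC gene body density was 4.91, 2.64 and 3.71 in WT replicates 1, 2 and 3 (3.75 ± 1.14, SD, n = 3), against 4.90 for CFAP20-KO and 2.51 for CFAP20/CCNC-dKO. The CFAP20/CCNC-dKO value was below all 3 WT libraries but only just below replicate 2. MYC promoter density was 3.30, 2.03 and 3.06 in WT (2.79 ± 0.672), below both CFAP20-KO (5.16) and CFAP20/CCNC-dKO (4.21). WT replicate 1 read from its TSS profile (3.67) also lay above these WT values. The part of the way of reading in these differences was not tested. A promoter above the WT range was common, at 37.1% of the 1206 TSSs for CFAP20-KO and 37.4% for CFAP20/CCNC-dKO. Such a share was not taken for WT read from its TSS profile.

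DUSP5 gene body density was 4.00, 2.68 and 4.29 in WT (3.66 ± 0.858, SD, n = 3), with 2.71 in CFAP20-KO, inside that range, and 5.08 in CFAP20/CCNC-dKO, above it. FOS gene body density was 0.732, 1.02 and 1.24 (0.996 ± 0.254), with 0.896 for CFAP20-KO, inside that range, and 0.499 for CFAP20/CCNC-dKO, below it. At promoters, DUSP5 had 4.09, 4.99 and 5.96 in the WT libraries, with CFAP20-KO below (3.78) and CFAP20/CCNC-dKO inside (5.96, just under the highest WT value). The FOS promoter had 1.72, 3.03 and 2.49, with both CFAP20-KO (2.702) and CFAP20/CCNC-dKO (1.82) inside. In gene body density, 30.7% of the 1206 TSSs lay below the WT range in CFAP20/CCNC-dKO and 25.5% above it, so a place outside 3 WT libraries is common. Between pairs of WT libraries, gene body density differed by at least 1.5-fold downwards at 2.57% to 9.20% of TSSs and upwards at 1.16% to 6.22%, and promoter density at 12.2% to 18.9% and 9.54% to 13.2%. The log2 promoter to gene body ratio in WT was 2.42 ± 0.028 at FOS, 1.85 ± 0.286 at DUSP5 and 0.99 ± 0.337 at MYC (SD, n = 3). Both terms of it carry a pseudocount of 10% of the library's median promoter density over the 1206 TSSs, so ratios of low genes are understated. Without it the plain ratios were 6.63 ± 0.307 at FOS, 3.85 ± 0.750 at DUSP5 and 2.11 ± 0.526 at MYC. FOS had the smallest SD of these members on either scale.

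**Figure D4:**
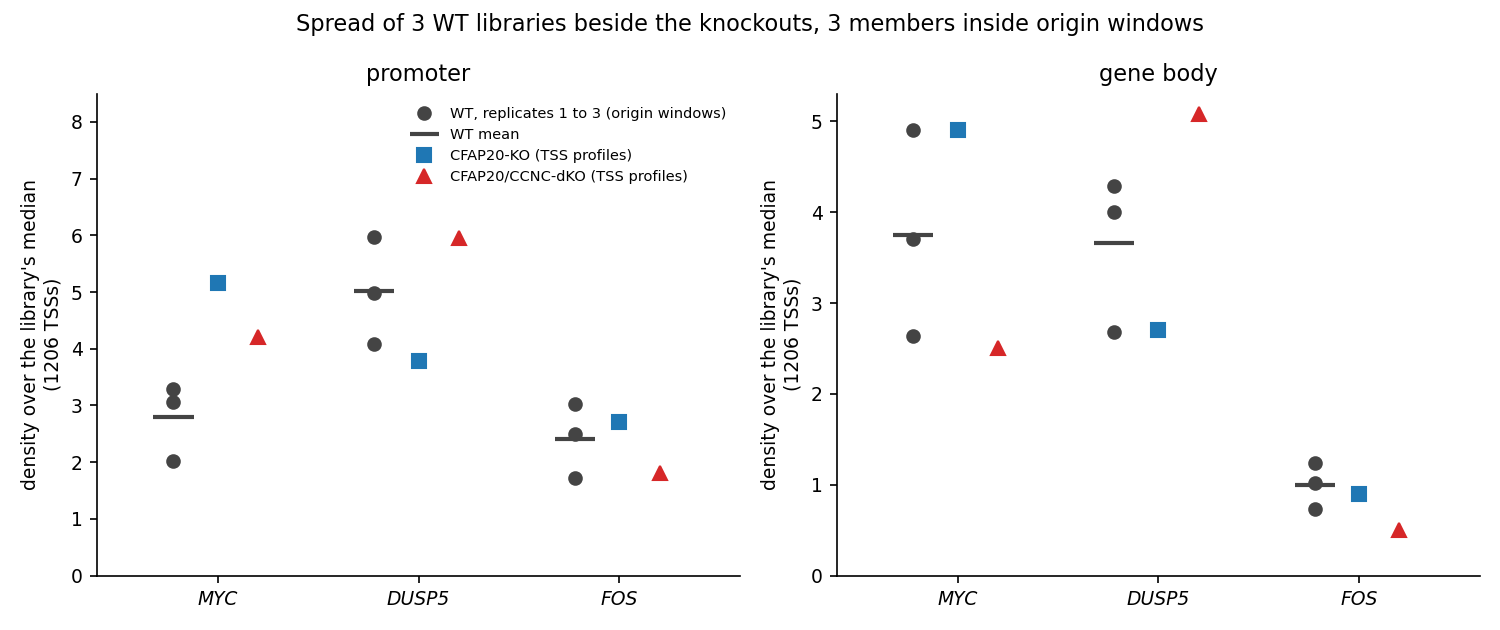
Promoter (left) and gene body (right) density over the median of 1206 TSSs in each library, for MYC, DUSP5 and FOS; circles are 3 WT libraries with their mean as a line, squares CFAP20-KO and triangles CFAP20/CCNC-dKO (1 library each). In the gene body the CFAP20/CCNC-dKO value lies below the WT circles for MYC and FOS and above them for DUSP5.

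Of 38 further immediate early genes listed by name, 15 were measured, and they did not share 1 direction. Against WT, gene body density in CFAP20/CCNC-dKO was at least 1.5-fold lower at 4 (FOSB, TRIB1, SPRY2 and ZFP36L1) and higher at 1 (SGK1), with a median of -0.14, against a background of 8.52% lower and 4.09% higher. ZFP36L1, which encodes a protein that binds AU-rich mRNAs, had 8.67 (WT), 8.07 (CFAP20-KO) and 2.59 (CFAP20/CCNC-dKO), 0.299 of WT (0.265 to 0.336). SPRY2, an inhibitor of receptor tyrosine kinase signalling, had 1.99, 1.17 and 0.640, lower in both knockouts (0.590 and 0.321 of WT). SGK1, a serum- and glucocorticoid-induced kinase, had 0.750, 1.37 and 2.47, 3.30-fold above WT in CFAP20/CCNC-dKO (2.84 to 3.83). FOSB, a FOS paralog, had 0.644 of WT (0.460 to 0.882), while EGR2, an EGR1 paralog, had 1.12 (0.878 to 1.41). In CFAP20-KO against WT, 3 of the 15 were lower (KLF4, NR4A2 and SPRY2) and 2 higher (NFKBIA and SGK1), with a median of 0.12 and a background of 10.6% and 5.97%. The KLF4 interval, 0.365 to 1.115, includes equality. The NFKBIA gene body of CFAP20-KO lay inside the range of 3 WT libraries, as given below. Between the knockouts 5 were lower and 3 higher, with a median of 0.01 and a background of 8.58% and 9.75%.

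At the promoters of the 15, CFAP20/CCNC-dKO against WT was lower at 5 (FOSB, KLF10, NFKBIA, SPRY2 and TRIB1) and higher at 1 (ATF3), with a median of -0.30 and a background of 16.8% lower and 18.9% higher. The ATF3 interval, 0.779 to 2.92, includes equality, and the FOSB interval relative to the median, -1.70 to 0.17, includes the median. NFKBIA, the inhibitor of NF-κB, had a promoter density of 4.05 in WT and 4.82 in CFAP20-KO, with 1.92 in CFAP20/CCNC-dKO, but a gene body density of 0.739, 1.49 and 1.12. Set against 3 WT libraries in the way described for MYC, the NFKBIA promoter of CFAP20/CCNC-dKO (1.97) was below their range of 2.62 to 3.74, and its gene body (2.33) was inside their range of 1.62 to 3.37. In CFAP20-KO, both the promoter (3.60) and the gene body (2.89) of NFKBIA were inside these ranges. CFAP20-KO against WT had 2 lower (EGR2 and KLF4) and 1 higher (ARC), against a background of 16.7% and 15.8%. All 3 of these intervals include equality (EGR2 0.111 to 1.19, KLF4 0.302 to 1.08, ARC 0.898 to 2.97). On the log2 scale relative to the median, the KLF4 interval (-1.86 to -0.027) just left out the median, and those of EGR2 and ARC did not. CFAP20/CCNC-dKO against CFAP20-KO had 4 lower and 2 higher, against 17.7% and 20.9%.

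**Figure D5:**
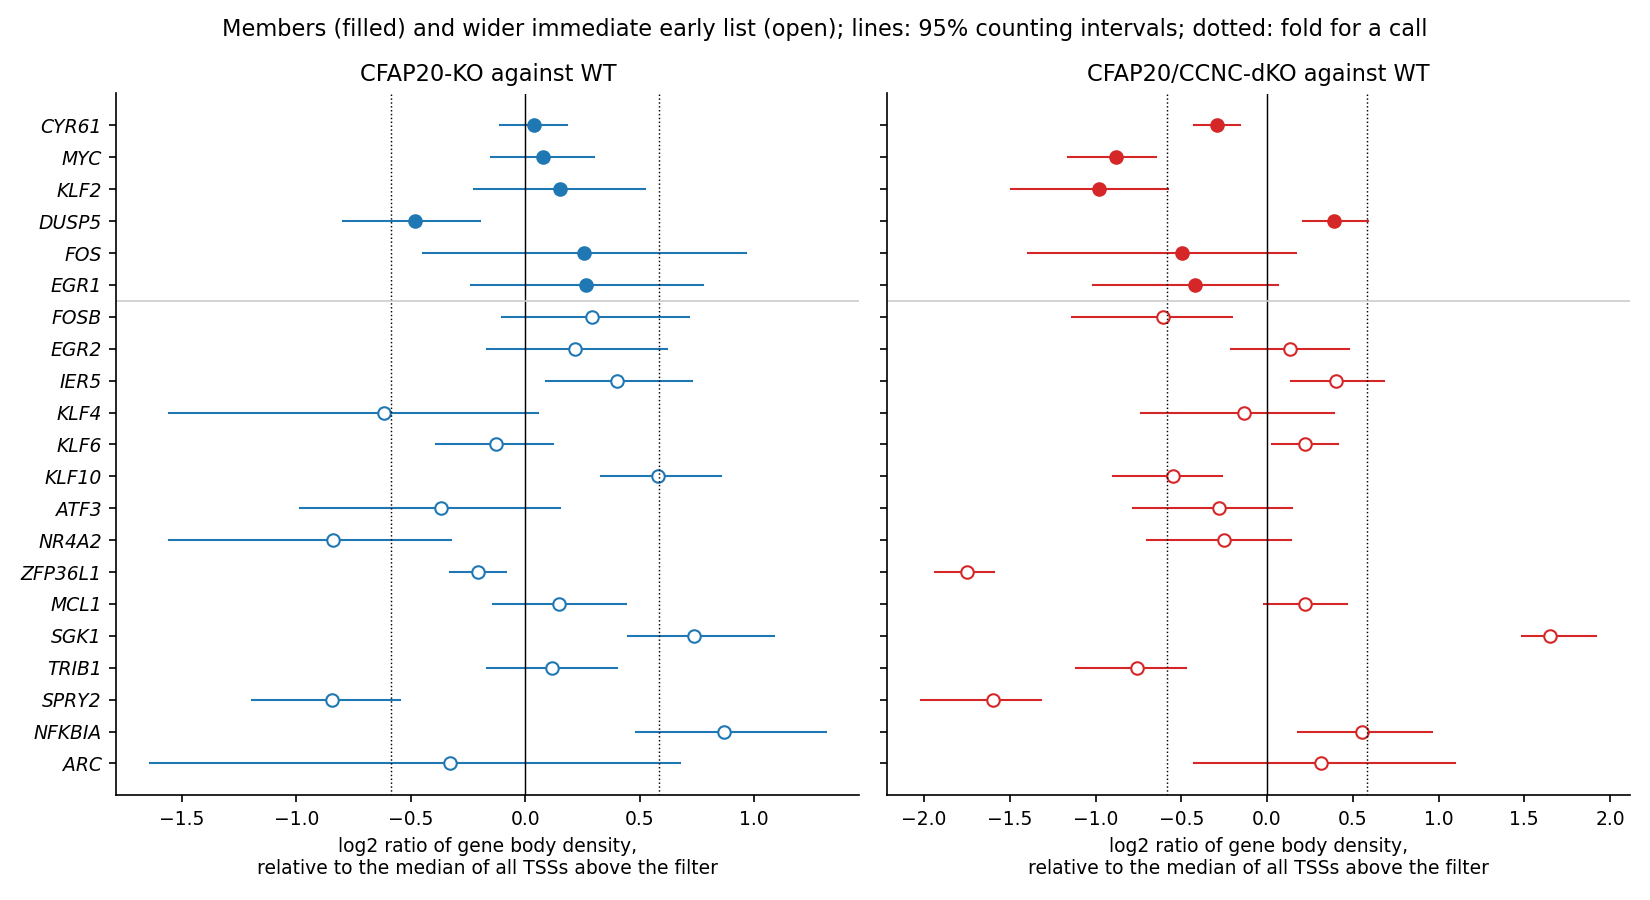
Log2 ratio of gene body density to WT, relative to the median of all TSSs above the filter, for the 6 members (filled) and 15 further immediate early genes (open) in CFAP20-KO (left) and CFAP20/CCNC-dKO (right); lines are 95% counting intervals and dotted lines 1.5-fold. ZFP36L1 and SPRY2 lie lowest and SGK1 highest in CFAP20/CCNC-dKO.

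Of 15 genes of the upstream pathway listed by name, 4 were measured: the SRF partner ELK4 and the MAP kinase pathway genes MAP2K2, MAPK3 (ERK1) and RPS6KA3 (RSK2). Gene body density in CFAP20/CCNC-dKO was lower than in WT by at least 1.5-fold at RPS6KA3 (0.618, 0.419 to 0.885), against a background of 8.52% of TSSs. Promoter density was lower at MAPK3 (0.485, 0.294 to 0.761) and MAP2K2 (0.483, 0.285 to 0.773), against 16.8%. In CFAP20-KO the only one past 1.5-fold was the gene body of MAP2K2, 1.73-fold above WT (1.30 to 2.27), against 5.97% higher among all TSSs. Between the knockouts, MAPK3 and MAP2K2 were lower in the gene body (background 8.58%) and MAP2K2 at the promoter (17.7%). With 4 genes measured, nothing is read from these counts. None of the 7 genes of the Mediator kinase module was measured, nor was the knockout of CCNC or CFAP20 checked at its own TSS.

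By the distance over 6 values (log2 promoter and gene body density in 3 libraries), the genes most like EGR1 were C1orf52 (0.26), PML (0.37) and ETV3 (0.41), and those most like FOS were AKAP7 (0.41), XPO4 (0.44) and MTFP1 (0.52). KLF2 was nearest to HSP90AA1 (0.70), MARVELD1 (0.75) and RPS24 (0.80), and MYC to SP3 (0.84), MARVELD1 (0.89) and RPS24 (0.95). DUSP5 was nearest to LBH (0.95), CALM2 (0.96) and PPIA (1.02).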

How the data were processed

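The deposited files hold RNAPII coverage (signal), in 10-bp bins within 5 kb of TSSs (spike-in normalized, per the file names; replicate 1 of each genotype) and in 200-bp bins within 100 kb of origin centres (3 WT libraries, normalization not given in the sources used here). The WT BrU-seq gene body value is the authors' own signal, with its scale not given in the sources used here. The submitters' processing notes name BWA 0.7.17 and HOMER 4.8.2 among the tools, without their roles, beside SAMtools 1.11 and Trim Galore 0.6.5. Per the labels, 28 µg of chromatin received 40 ng of Drosophila chromatin (22 µg and 32.6 ng for CFAP20/CCNC-dKO), and reads were paired-end on different instruments.

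Densities, ratios and intervals were computed with Python 3.11.15, NumPy 2.4.6, pandas 2.3.3 and SciPy 1.17.1, and the steps were tested on simulated data. Of 9944 listed TSSs, 9787 had values in all 3 libraries. All TSS values lay within 0.001 steps of whole multiples of the library's step. Intervals of fold changes leave out the pseudocount. Gene ends and neighbours came from GENCODE 44 (hg38). Another 2 columns with per-sample values were left out. The members and gene lists were chosen with earlier results of these data known. Named genes are the 6 members, the genes of the wider list at least 1.5-fold away from the median in any comparison, measured pathway genes and the 3 genes nearest to each member over 6 values. The genes nearest to CYR61 are not reported here. EGR2, a paralog, is named for its gene body although only its promoter passed. Alternatives covered the windows, the pseudocount, the centring and the gene end.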

Additional observations from a re-analysis of the deposited data

How the results depend on the processing

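Each member's log2 ratio was recomputed with other windows, pseudocounts and centrings and, chosen after seeing the data, with the GENCODE gene end for the members. MYC and KLF2 stayed at least 1.5-fold lower in the gene body of CFAP20/CCNC-dKO against WT under all 9 alternatives (MYC -1.05 to -0.80, KLF2 -1.02 to -0.71). The genes were selected on this contrast in the same libraries, so this shows only that the values depend little on these settings. Of 288 values of single members, 279 stayed inside their counting interval, 8 left it and 1 reversed from a difference of at least 1.5-fold. Of the 288, 17 changed sign, in 9 of the results, and all but 1 of these had differed by less than 1.5-fold. The reversal was at EGR1, whose gene body density in CFAP20/CCNC-dKO against CFAP20-KO was 0.19 with the gene body from 2000 bp, where the last 500 bp hold 0.70 fragments in CFAP20-KO, against -0.67. From 2000 bp, EGR1 in CFAP20-KO against WT was -0.49 in place of 0.26. Counts of members moved as follows, and the cause was not tested. In CFAP20/CCNC-dKO against WT, 3 in place of 2 had lower gene body density from 2000 bp and with the end at 5000 bp (FOS added), and 2 had lower promoter density with the window from -50 to 300 bp. In CFAP20-KO against WT, 1 (DUSP5) had lower gene body density from 2000 bp. In CFAP20/CCNC-dKO against CFAP20-KO, 2 in place of 4 had lower gene body density with the larger pseudocount, 1 had lower promoter density with the window from -500 to 1000 bp, 5 without centring and 4 when centred on upstream density. In the same comparison 0 had higher promoter density with the narrow window, the larger pseudocount, no centring, centring on upstream density or centring on all TSSs, so the DUSP5 call at the promoter depended on these settings. The WT log2 promoter to gene body ratio at FOS, with its pseudocount, was 2.46 with the gene body from 2000 bp. Without each WT replicate in turn this ratio ranged from 2.41 to 2.44 at FOS, from 1.723 to 2.003 at DUSP5 and from 0.82 to 1.15 at MYC. No paired analysis was possible because the TSS comparisons hold 1 library per genotype, all numbered replicate 1. Depth limits EGR1 most at the promoter, with 27.5 and 11.5 fragments at the EGR1 promoter in CFAP20-KO and CFAP20/CCNC-dKO.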
